A study of Mus musculus with 9 samples.

Results

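White adipose tissue of obese mice that had received a plant extract was compared with that of lean wild type mice, over all transcript clusters that carry a gene name on the Clariom S mouse array. The arrays were chosen by their titles: 3 arrays of ob/ob mice that took VE, an extract of rice bean (Vigna umbellata), at 100 mg/kg, and 3 arrays of C57BL/6JHamSlc-+/+ mice given vehicle, so 6 of the 9 arrays of the series, and 19572 of its 22206 transcript clusters. All mice were males of the C57BL/6JHamSlc background, obtained at 6 weeks of age and kept on standard chow, and the VE mice carried the ob/ob genotype and took the extract by oral gavage for 42 days. The remaining 3 arrays were of ob/ob mice given vehicle, and their values stand beside those of the VE mice where they bear on a result. Genotype and extract both differed between the VE and wild type mice, so what either contributes to a difference between them cannot be told apart in this comparison. The labels do not name the fat depot or a mouse number, so the replicates may differ for technical reasons as well, and p-values measure the spread between these arrays.

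ob/ob mice carry an inactive leptin gene. Leptin is the hormone by which fat cells report the size of the fat store to the brain, and without it mice overeat and the fat pad grows by filling of adipocytes with triglyceride. In grown fat pads macrophages gather around dying adipocytes, take up their lipid and digest it in lysosomes; such lipid-associated macrophages are known for Trem2, Gpnmb, Lgals3 and Cd9. Adipocytes themselves are defined by the nuclear receptor gene Pparg, by lipid droplet coat proteins such as those of Plin1 and Cidec, and by secreted adipokines such as the products of Lep and Adipoq.

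The 3 wild type arrays differed from each other more than the VE arrays did. The correlation over all clusters was 0.982 to 0.988 among the VE arrays and 0.933 to 0.956 among the wild type arrays, and the median SD of a cluster was 0.257 log2 units over the VE arrays and 0.407 over the wild type arrays. On the leading principal component (59.2% of the variance) the scores set wild type arrays 1 and 2 at 114.1 and 130.5, wild type array 3 at 62.5 and every VE array between -58.4 and -54.3. Wild type arrays 1 and 2 carried more transcript of epithelium, smooth muscle and the epididymis than wild type array 3, by the list medians given below. Each wild type array is therefore reported on its own beside the group mean.

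VE fat stood apart from lean fat in a large share of the transcriptome: by limma at a Benjamini-Hochberg adjusted p under 0.05, 3920 of 19572 clusters (20%) passed, 2436 (12.4%) with higher and 1484 (7.58%) with lower signal in the VE mice. Genes of lipid-laden macrophages, Fc receptors, lysosomes and dividing cells were among the increases, together with leptin and the adipocyte expansion marker Mest, while genes of epithelium and smooth muscle led the decreases. The median difference over all clusters was -0.07 log2 units, and it moved by over 0.1 to 0.04 when each array was centred on its median. The increase exceeded 2-fold in 2192 clusters (11.2%) and the decrease in 1172 (5.99%). The VE and wild type arrays did not overlap in 7281 clusters (37.2%), 3810 (19.5%) with higher and 3471 (17.7%) with lower VE signal. A lack of overlap in a gene named below is to be read against these shares. Leaving out VE array 1 gave 1595 higher and 719 lower clusters, leaving out VE array 2 gave 1628 and 714, and leaving out VE array 3 gave 1865 and 777.

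Of the 2436 clusters called higher, the VE mean lay nearest to wild type array 3 in 1391 (57.1%). It lay nearest to array 2 in 661 (27.1%) and to array 1 in 384 (15.8%). Over all clusters these shares were 40%, 33.5% and 26.5%. The median increase over the clusters called higher was 1.90 log2 units against wild type array 1, 1.69 against array 2 and 1.41 against array 3. Of these clusters 1491 (61.2%) exceeded 2-fold against each of the 3 arrays. Of the 1484 clusters called lower, 613 (41.3%) lay nearest to array 3, near the 40% over all clusters. Among the clusters called lower, 583 (39.3%) were more than 2-fold lower than on each wild type array. Over all clusters, 11.2% differed by more than 2-fold from each wild type array. With wild type array 3 as the only lean array, the lone array has to be assumed to vary like the other groups. The clusters then called, above all the lower ones, were only in part those called with all 3 wild type arrays.

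**Figure D1:**
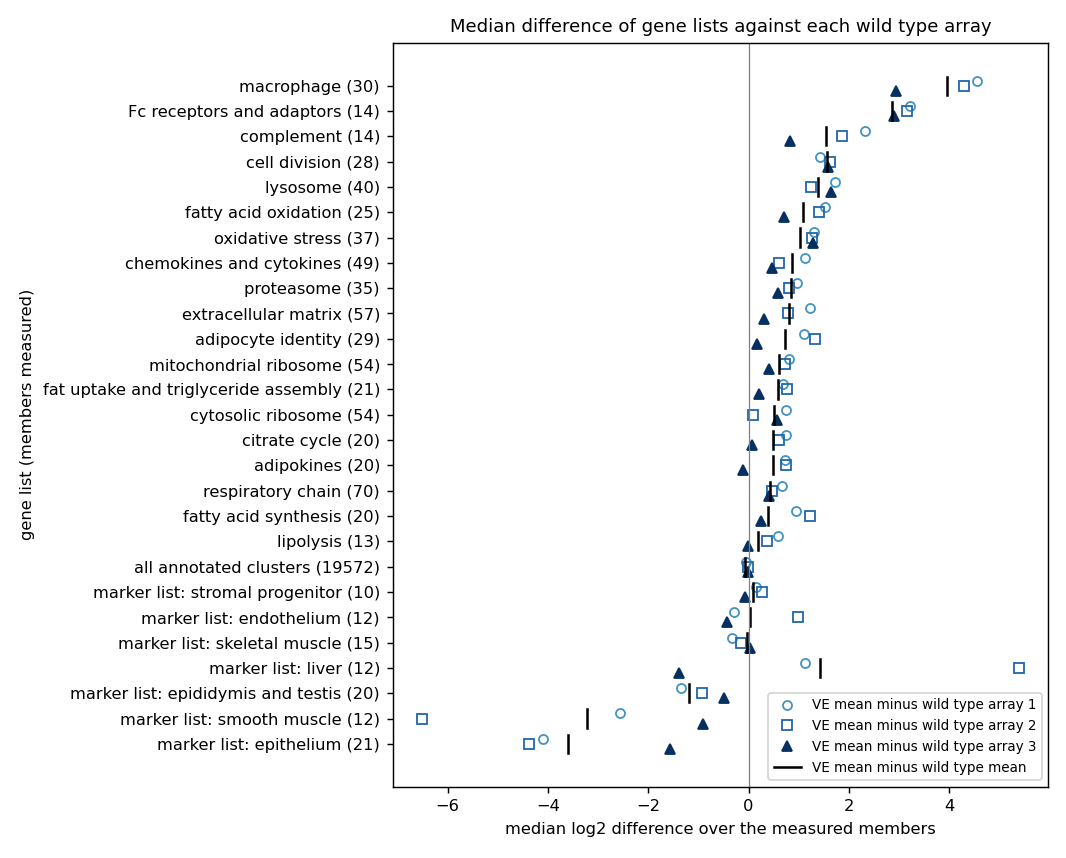
Median log2 difference over the measured members of each gene list, VE mean minus wild type array 1 (circles), array 2 (squares) and array 3 (triangles), with a bar for the VE mean minus the wild type mean. The macrophage list lies at 4.56, 4.29 and 2.95 and the cell division list at 1.43, 1.62 and 1.58, while the epithelium list lies at -4.09, -4.38 and -1.57 and the smooth muscle list at -2.57, -6.50 and -0.90.

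Macrophage genes showed the largest rise: 22 of 30 measured members were higher in the VE mice and 0 lower, with a median difference of 3.95 against -0.07 over all clusters. The lipid-associated group gave 11 of 12 members, the pan-macrophage group 8 of 10 and the group of resident macrophages 3 of 8. Gpnmb, a glycoprotein of lysosome-rich macrophages, had signals of 16.87, 17.36 and 17.72 in the VE group against 6.88, 7.76 and 8.0 in lean mice. Its difference was 9.77 ± 0.43 (SE, n = 3 and 3; limma adjusted p = 2.94e-06), which is an 873-fold higher signal. The 2 groups lay far apart on every array, and the ob/ob mice on vehicle stood 10.05 above wild type. Lgals3, which encodes the lectin galectin 3, gave 15.97, 15.83 and 16.37 against 5.69, 6.06 and 7.35. Lgals3 differed by 9.69 ± 0.44 (limma adjusted p = 3.32e-06). Mmp12, the macrophage elastase gene, gave 18.64, 18.59 and 19.17 against 10.14, 9.0 and 10.48. Mmp12 differed by 8.93 ± 0.39 (limma adjusted p = 2.94e-06). Trem2, the lipid-sensing receptor gene of these cells, gave 11.68, 11.43 and 11.13 against 4.22, 3.56 and 4.52. Trem2 differed by 7.31 ± 0.42 (limma adjusted p = 1.13e-05). In each of these genes the groups did not overlap, and wild type array 3 was the highest of the lean arrays. The wild type signals of Trem2 lay near the dim end of the array, so the size of its difference is uncertain.

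Other members of the lipid-associated group rose as well: Atp6v0d2, a proton pump subunit of macrophages and osteoclasts, by 8.79 ± 0.57, Lipa, the lysosomal acid lipase gene, by 5.64 ± 0.38, Plin2, a lipid droplet coat gene, by 5.52 ± 0.47, Ctsk by 5.20 ± 0.30, Itgax, the integrin gene of CD11c, by 5.06 ± 0.39 and Cd9 by 2.08 ± 0.34 (limma adjusted p from 1.16e-05 to 0.00242). Apoe, an apolipoprotein gene that adipocytes also express, did not pass, at 0.41 ± 0.24 (limma adjusted p = 0.252). Among general macrophage genes, Mpeg1 rose by 5.98 ± 0.45, Spi1, the transcription factor gene PU.1, by 5.38 ± 0.45, Itgam by 4.28 ± 0.43, Adgre1, the gene of the F4/80 antigen, by 4.01 ± 0.42 and Csf1r, the growth factor receptor gene of the lineage, by 3.59 ± 0.58 (limma adjusted p from 3.61e-05 to 0.00237). Markers of resident macrophages were mixed: Folr2 rose by 3.66 ± 0.53 (limma adjusted p = 0.00128) and Pf4 by 2.70 ± 0.48 (limma adjusted p = 0.00400), while Timd4 did not pass, at -0.42 ± 0.23 (limma adjusted p = 0.227). The median of the 8 resident genes was 0.92, and -0.035 against wild type array 3. Pf4 was not called without wild type arrays 1 and 2, where its difference was 1.64. In whole tissue, more cells of a type and more RNA per cell cannot be told apart.

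**Figure D2:**
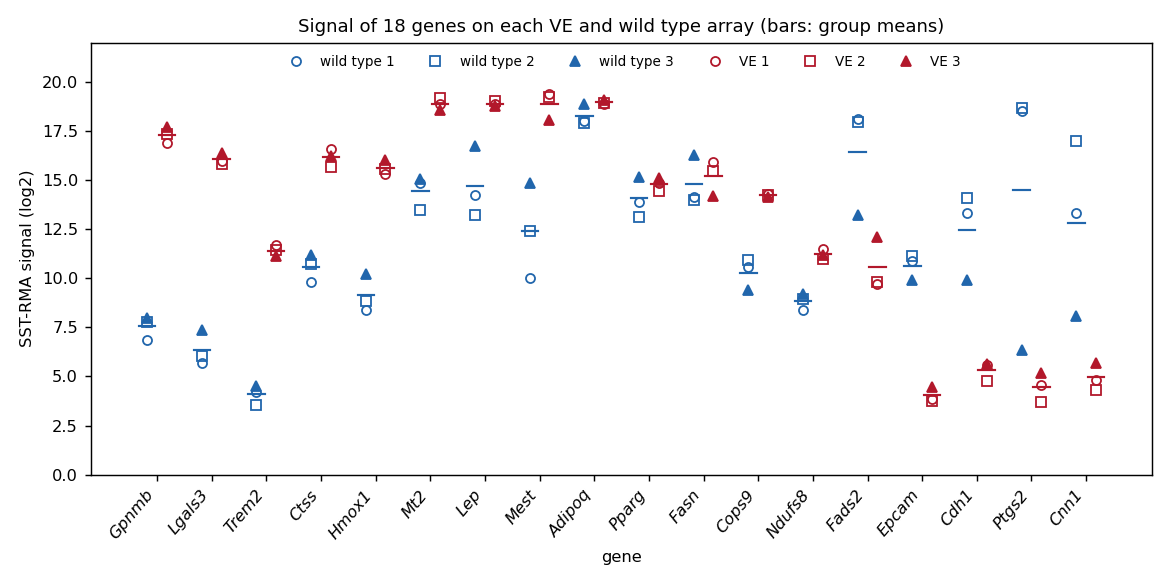
SST-RMA log2 signal of 18 genes on each of the 3 wild type (blue) and 3 VE (red) arrays, with a bar at each group mean. Gpnmb, Lgals3 and Trem2 show the widest gaps upward, Adipoq, Pparg and Fasn have overlapping or nearly touching groups, and the wild type points of Ptgs2, Cnn1 and Fads2 split between arrays 1 and 2 and array 3.

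Signalling partners of macrophages rose with them. Of 14 measured Fc receptor and adaptor genes 10 were higher and 0 lower (median 2.85). Fcer1g, the shared gamma chain gene of Fc receptors, gave 14.37, 14.27 and 14.13 on the VE arrays against 7.25, 6.69 and 8.97. Fcer1g differed by 6.62 ± 0.52, and Tyrobp, the adaptor gene of Trem2, rose by 5.51 ± 0.42, Fcgr3 by 5.11 ± 0.41 and the scavenger receptor gene Msr1 by 4.25 ± 0.25 (limma adjusted p from 1.48e-05 to 4.35e-05). Of 14 complement genes 7 were higher and 1 lower: the receptor genes C3ar1 (6.93 ± 0.55) and C5ar1 (4.35 ± 0.35) and the first component genes C1qb (5.41 ± 0.48), C1qc (3.53 ± 0.49) and C1qa (3.39 ± 0.52) rose (limma adjusted p from 4.35e-05 to 0.00173), and C2, a convertase component gene, fell by 1.79 ± 0.42 (limma adjusted p = 0.0152). The call of C2 was lost without VE array 2, where its adjusted p was 0.0555.

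Chemokines and cytokines gave 20 higher and 0 lower of 49 (median 0.86), most often among CC chemokines, of which 8 of 14 were higher against 1 of 10 CXC chemokines. Ccl2, which recruits monocytes, had signals of 12.50, 10.22 and 10.69 against 6.84, 6.45 and 6.81. Ccl2 differed by 4.44 ± 0.49 (limma adjusted p = 0.000253). VE array 1 was the highest, and the groups did not overlap. Ccl9 rose by 5.57 ± 0.46, Ccl3 by 4.89 ± 0.53 and the eosinophil attractant gene Ccl11 by 3.89 ± 0.55 (limma adjusted p from 5.33e-05 to 0.00115). Among cytokines the antagonist gene Il1rn rose by 6.64 ± 0.51 (limma adjusted p = 3.64e-05), from 5.19, 5.02 and 6.69 to 12.18, 12.75 and 11.88. Tnf rose by 1.66 ± 0.22 (limma adjusted p = 0.000864), between signals of 3.37 to 3.53 on the wild type and 4.99 to 5.30 on the VE arrays, near the dim end of the array, and its receptor gene Tnfrsf1b by 3.52 ± 0.23 (limma adjusted p = 2.06e-05). Il6 did not pass, at -0.27 ± 0.39 (limma adjusted p = 0.667), with overlapping groups.

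Lysosomal genes followed: 25 of 40 were higher and 0 lower, with a median of 1.38 (1.72, 1.25 and 1.65 against wild type arrays 1, 2 and 3). The proton pump that acidifies the lysosome gave 10 of 14 members, the membrane proteins and regulators 6 of 8, the cathepsins 5 of 11 and other hydrolases 4 of 7. Ctss, a cathepsin gene of antigen-presenting cells, had signals of 16.58, 15.69 and 16.24 against 9.82, 10.71 and 11.21. Ctss differed by 5.59 ± 0.37 (limma adjusted p = 2.06e-05). Ctsz rose by 4.60 ± 0.41, Gusb, the beta glucuronidase gene, by 3.89 ± 0.32, the pump subunit gene Atp6v1b2 by 3.89 ± 0.31, Ctsa by 3.71 ± 0.49 and Ctsb by 2.86 ± 0.29 (limma adjusted p from 4.35e-05 to 0.000752). Of the transcription factor genes that act on lysosomal promoters, Mitf rose by 2.87 ± 0.33 (limma adjusted p = 0.000313) and Tfe3 by 2.34 ± 0.33 (limma adjusted p = 0.00114), while Tfeb did not pass, at 0.52 ± 0.25 (limma adjusted p = 0.178).

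Promoter windows from RefSeq (GRCm38.p6, 250 bases before to 50 after the annotated start) were at hand for 15691 of the 19505 genes measured. The word TCACGTG is an E-box form known to be bound by the MITF and TFE factors. Searched on both strands, it was in 817 of these windows (5.21%) and in 9 of 30 windows of the lysosome list (30%). Of those 9 genes 8 were called higher, against 12 of the 21 lysosome genes whose window lacks the word. Over all genes with a window, 142 of the 817 with the word were called higher, against 1818 of the 14874 without it. This word and the others printed were picked from 15 searched, after the matches had been seen. A match describes the letters of a window and is no measured binding site. The 150 bases before the start are printed for 3 of the 9 genes, as examples of a pump subunit, a cation channel of the lysosomal membrane and a protease, each read 5′ to 3′ on the strand of its gene with the word in capitals; on TCACGTGA both strands match and overlap.
Atp6v1a, chr16:44139260-44139409 (-): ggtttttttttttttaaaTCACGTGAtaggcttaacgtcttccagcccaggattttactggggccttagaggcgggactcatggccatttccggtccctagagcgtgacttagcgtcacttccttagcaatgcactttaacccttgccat
Mcoln1, chr8:3500369-3500518 (+): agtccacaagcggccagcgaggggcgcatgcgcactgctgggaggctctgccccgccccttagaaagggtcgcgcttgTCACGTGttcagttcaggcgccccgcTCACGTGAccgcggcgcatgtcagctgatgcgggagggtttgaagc
Ctsa, chr2:164833623-164833772 (+): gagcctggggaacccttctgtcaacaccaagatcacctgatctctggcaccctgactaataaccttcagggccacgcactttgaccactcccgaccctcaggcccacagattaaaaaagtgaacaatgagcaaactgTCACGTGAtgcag

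The 3 genes shown rose by different amounts. Atp6v1a had signals of 12.00, 11.80 and 11.96 on the VE arrays against 10.28, 10.45 and 10.27. Atp6v1a differed by 1.59 ± 0.29 (limma adjusted p = 0.00422). Mcoln1 gave 11.26, 11.61 and 11.06 against 9.20, 10.08 and 9.88. Mcoln1 differed by 1.59 ± 0.30 (limma adjusted p = 0.00514). Ctsa gave 12.61, 13.23 and 12.76 against 8.25, 9.08 and 10.15. The groups did not overlap in any of the 3 genes, and wild type array 3 was the highest lean array only for Ctsa.

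The word TGACTCA, which AP-1 factors are known to bind, was searched on both strands too. It was in 5.51% of all windows and in 4 of 23 windows of the macrophage list (17.4%). These were Gpnmb, Mmp12, Itgax and Folr2, all called higher, against 12 of the 19 macrophage genes without the word. Over all genes the share went the other way by a little, with 101 of 865 called higher among those with the word and 1859 of 14826 among those without it. It is shown for Mmp12, the brightest of them on the VE arrays, and for Itgax, with the word in capitals as it reads on the strand of the gene.
Mmp12, chr9:7347224-7347373 (+): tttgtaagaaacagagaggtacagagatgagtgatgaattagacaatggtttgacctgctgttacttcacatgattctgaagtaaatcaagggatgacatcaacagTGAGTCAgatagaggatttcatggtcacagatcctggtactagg
Itgax, chr7:128129400-128129549 (+): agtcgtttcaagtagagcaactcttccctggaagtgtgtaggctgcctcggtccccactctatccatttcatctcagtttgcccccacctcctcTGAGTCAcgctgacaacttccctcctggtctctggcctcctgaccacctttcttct

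Genes of oxidant production and removal rose on 18 and fell on 2 of 37 measured (median 1.03). Of 7 NADPH oxidase genes 6 were higher, among them Cybb (4.42 ± 0.47), the catalytic subunit gene of phagocytes, Rac2 (3.70 ± 0.38), Cyba (3.51 ± 0.46) and Ncf1 (2.98 ± 0.31), with limma adjusted p from 0.00018 to 0.000692. Hmox1, which breaks down heme, had signals of 15.31, 15.59 and 16.02 against 8.36, 8.86 and 10.24. Hmox1 differed by 6.49 ± 0.58 (limma adjusted p = 7.92e-05). Of 9 genes of NRF2 and its targets it was 1 of 2 called, the other being Srxn1 (3.00 ± 0.78, limma adjusted p = 0.0234), whose call was lost without wild type array 1, VE array 2 or VE array 3 (differences from 2.49 to 3.72 over all arrays left out, adjusted p up to 0.0877). Of 10 genes for peroxide or superoxide removal 7 were higher and 1 lower, the latter at -2.00. Sod3, the secreted superoxide dismutase gene, rose by 3.47 ± 0.44, Gpx1 by 2.23 ± 0.26, Gpx4 by 1.89 ± 0.23 and Sod2 by 1.80 ± 0.27 (limma adjusted p from 0.000319 to 0.0016). Gsta4, a glutathione transferase gene that clears lipid aldehydes, fell by 2.29 ± 0.30 (limma adjusted p = 0.000735).

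Metallothioneins bind zinc and other metals. Of 3 measured, 2 were called higher. The other did not pass, at -1.62, with its VE arrays below the wild type arrays without overlap. Mt2 had signals of 18.88, 19.16 and 18.58 on the VE arrays, 14.85, 13.48 and 15.05 on the wild type arrays and 17.92, 16.50 and 16.83 on the ob/ob vehicle arrays. VE exceeded wild type by 4.41 ± 0.47 (limma adjusted p = 0.000211) and vehicle exceeded it by 2.62 (limma adjusted p = 0.0046). Mt1 gave 18.58, 18.41 and 18.51 against 16.39, 15.37 and 16.76. Mt1 differed by 2.33 ± 0.51 (limma adjusted p = 0.0113), and by 1.00 in the vehicle mice (limma adjusted p = 0.24). In Mt1 and Mt2 the VE arrays lay above the wild type arrays without overlap, and neither gene was called between VE and vehicle.

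Matrix genes were higher in 23 and lower in 3 of 57 (median 0.80, and 0.32 against wild type array 3 alone), with 3 of 15 collagen genes called higher, and 7 of 11 matricellular and 6 of 10 protease genes called higher. Lox, the crosslinking enzyme gene lysyl oxidase, had signals of 14.67, 14.86 and 13.61 against 8.90, 9.81 and 10.91. Lox differed by 4.51 ± 0.49 (limma adjusted p = 0.000247). Thbs1 rose by 4.42 ± 0.35, Timp1, a protease inhibitor gene, by 4.47 ± 0.58, Thbs2 by 3.56 ± 0.38, Plod1 by 3.17 ± 0.33, Adam8 by 7.26 ± 0.50 and Col5a1 by 2.29 ± 0.29 (limma adjusted p from 2.43e-05 to 0.000662). Col3a1, a main fibril collagen gene of fat, did not pass, at -0.51 ± 0.57 (limma adjusted p = 0.564). Without VE array 1 the list gave 16 higher and 0 lower, and without VE array 3 it gave 19 and 0.

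Genes of cell division were higher in 18 of 28 and lower in 0, with a median of 1.56 (1.43, 1.62 and 1.58 against the single wild type arrays). Mki67, the proliferation antigen gene, had signals of 11.75, 10.76 and 10.78 against 8.59, 8.25 and 6.93. Mki67 differed by 3.17 ± 0.55 (limma adjusted p = 0.00336). Ube2c rose by 3.69 ± 0.61, the cyclin genes Ccnb2 by 2.81 ± 0.32 and Ccna2 by 2.67 ± 0.32, and Pcna by 1.64 ± 0.26 (limma adjusted p from 0.000301 to 0.00265). The ob/ob vehicle mice gave 18 higher of the same 28 with a median of 1.37, beside 1766 higher over all clusters (9.02%) and 988 lower (5.05%) in that comparison, which shares the wild type arrays.

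Leptin mRNA was higher in the VE mice, which lack active leptin. Lep had signals of 18.86, 19.02 and 18.75 on the VE arrays against 14.22, 13.22 and 16.72 on the wild type arrays. Lep differed by 4.16 ± 0.69 (limma adjusted p = 0.00276), whose 95% interval is 6.14-fold to 51.8-fold. Wild type array 3 lay closest, and the groups did not overlap. Mest, a marker of adipocyte expansion, gave 19.39, 19.22 and 18.07 against 10.04, 12.39 and 14.84. Mest differed by 6.47 ± 0.95 (limma adjusted p = 0.00143). Sfrp5, a secreted WNT antagonist gene of fat, gave 12.19, 13.15 and 12.51 against 5.62, 5.47 and 5.69. Sfrp5 differed by 7.02 ± 0.29 (limma adjusted p = 2.94e-06), and the 3 lean arrays lay close together. Among 15 adipokine ligands 5 were higher, with Metrnl (4.12 ± 0.29), the chemerin gene Rarres2 (3.30 ± 0.34) and Angptl4 (2.56 ± 0.39) beside Lep and Sfrp5 (limma adjusted p from 2.7e-05 to 0.00178). Adipoq did not pass: its signals were 18.89, 18.94 and 19.06 against 17.99, 17.93 and 18.87. Adipoq differed by 0.70 ± 0.28 (limma adjusted p = 0.111; interval 1.05-fold to 2.52-fold), although the groups did not overlap, and without wild type array 3 it was 1.00 and passed (limma adjusted p = 0.0146). Retn, the resistin gene, and Lepr, the leptin receptor gene, did not pass, at 0.87 ± 0.70 and -0.59 ± 0.38 (limma adjusted p = 0.412 and 0.308). The adipokine list gave 5 higher and 0 lower of 20, which is 25% called beside 20% over all clusters. Its median of 0.48 was -0.10 against wild type array 3, and 8 members were higher when that array was left out.

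Adipocyte genes rose in part. Of 29 identity genes 12 were higher and 0 lower (median 0.74, and 0.16 against wild type array 3), led by caveola genes (4 of 6) and lipid droplet coat genes (4 of 9), while 1 of 9 transcription factor genes passed. Bscl2, the seipin gene of droplet assembly, rose by 2.46 ± 0.40, Cavin1 by 2.38 ± 0.46 and Zfp423, a preadipocyte factor gene, by 2.57 ± 0.50 (limma adjusted p from 0.00253 to 0.00624). Of the coat genes named above, Cidec rose by 1.14 ± 0.33 (limma adjusted p = 0.0369), a call that was kept without wild type array 3 and lost when any other of the 9 arrays was left out (0.72 to 1.44, adjusted p up to 0.106). Plin1 did not pass, at 0.46 ± 0.36 (limma adjusted p = 0.403), except without wild type array 3 (0.93, limma adjusted p = 0.022). Pparg had signals of 14.84, 14.46 and 15.10 against 13.91, 13.12 and 15.17. Pparg differed by 0.73 ± 0.47 (limma adjusted p = 0.302; interval 0.807-fold to 3.43-fold). Wild type array 3 lay above all 3 VE arrays, and without it the difference was 1.29 and passed (limma adjusted p = 0.0267). Leaving out wild type array 1 or 2 gave 8 called identity genes, leaving out wild type array 3 gave 18, and leaving out VE array 2 gave 7.

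Among 21 genes of fat uptake and triglyceride assembly 7 were higher and 1 lower (median 0.58). Gpd1, which supplies glycerol phosphate, had signals of 16.53, 16.91 and 16.42 against 12.73, 13.08 and 14.77. Gpd1 differed by 3.09 ± 0.48 (limma adjusted p = 0.00182). Dgat1, of the last step of triglyceride synthesis, differed by 1.65 ± 0.41 (limma adjusted p = 0.0189) and passed with each array left out except wild type array 1, VE array 1 and VE array 2 (difference 1.32 to 2.05 over the arrays left out, adjusted p up to 0.0765). Acsl5, which activates fatty acids, rose by 1.32 ± 0.22 and Vldlr, a lipoprotein receptor gene, by 1.35 ± 0.33 (limma adjusted p = 0.00249 and 0.0181). The call of Vldlr was lost without wild type array 1, VE array 1 or VE array 2 (1.09 to 1.64, adjusted p up to 0.0747). Mogat1, of the monoacylglycerol route, fell by 1.39 ± 0.28 (limma adjusted p = 0.00748). Fabp4, the abundant fatty acid binding protein gene of adipocytes, did not pass, at 0.35 ± 0.20 (limma adjusted p = 0.244), and neither did Lpl, at 0.89 ± 0.32 (limma adjusted p = 0.0788), which passed without wild type array 3, at 1.29 (limma adjusted p = 0.0029). The number of higher members was 2 without wild type array 1, 3 without VE array 1, 2 without VE array 2 and 4 without VE array 3.

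Lipolysis genes gave 2 higher and 1 lower of 13 (median 0.18), which is 23.1% called, near the 20% over all clusters. Prkar2b, a protein kinase A subunit gene, had signals of 16.86, 16.88 and 16.99 against 14.84, 14.86 and 15.72. Prkar2b differed by 1.77 ± 0.34 (limma adjusted p = 0.00588), with no overlap. Lipf, known as the gastric lipase gene, rose by 2.51 ± 0.53 (limma adjusted p = 0.00891). Neither was called without wild type arrays 1 and 2 (Prkar2b at 1.19, Lipf at 2.27), and the list then gave 0 higher and 2 lower. Pde3b, the phosphodiesterase gene through which insulin restrains lipolysis, fell by 1.08 ± 0.26 (limma adjusted p = 0.018), a call lost without VE array 1 or 2 (difference -1.23 to -0.93 over the arrays left out, adjusted p up to 0.0695). The main lipase genes did not pass: Pnpla2, of adipose triglyceride lipase, gave 0.82 ± 0.42 (limma adjusted p = 0.197) and Lipe, of hormone-sensitive lipase, 0.81 ± 0.41 (limma adjusted p = 0.194). Without wild type array 3 both passed, Pnpla2 at 1.23 (limma adjusted p = 0.0369) and Lipe at 1.32 (limma adjusted p = 0.0108), and the list then gave 5 higher and 1 lower.

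Fatty acid synthesis genes gave 6 higher and 2 lower of 20 (median 0.40), and the lower members were the 2 desaturases of polyunsaturated fatty acids. Fads2 had signals of 9.73, 9.82 and 12.12 on the VE arrays against 18.13, 17.96 and 13.24 on the wild type arrays. Fads2 differed by -5.89 ± 1.17 (limma adjusted p = 0.00696). The groups did not overlap, but wild type array 3 lay nearer to VE array 3 than to the other lean arrays, and against that array alone the difference was -2.68 and not called. Fads1 gave 9.68, 10.51 and 11.23 against 14.04, 14.18 and 11.61. Fads1 differed by -2.80 ± 0.71 (limma adjusted p = 0.0213), which was not called without wild type array 1, wild type array 2, VE array 1 or VE array 2 (difference -3.64 to -2.35 over the arrays left out, adjusted p up to 0.0846). Nr1h3, the gene of the sterol-sensing receptor LXR alpha, rose by 2.40 ± 0.49 and Me1, which makes NADPH for synthesis, by 1.79 ± 0.35 (limma adjusted p = 0.00759 and 0.00619). Against wild type array 3 alone, Nr1h3 (1.37) and Me1 (1.16) were not called, and the list gave 3 higher and 0 lower. Fasn, the fatty acid synthase gene, gave 15.94, 15.47 and 14.19 against 14.12, 13.97 and 16.27. Fasn differed by 0.41 ± 0.64 (limma adjusted p = 0.692; interval 0.492-fold to 3.60-fold), with overlapping groups and its highest signal on wild type array 3; its sign turned under quantile normalization.

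**Figure D3:**
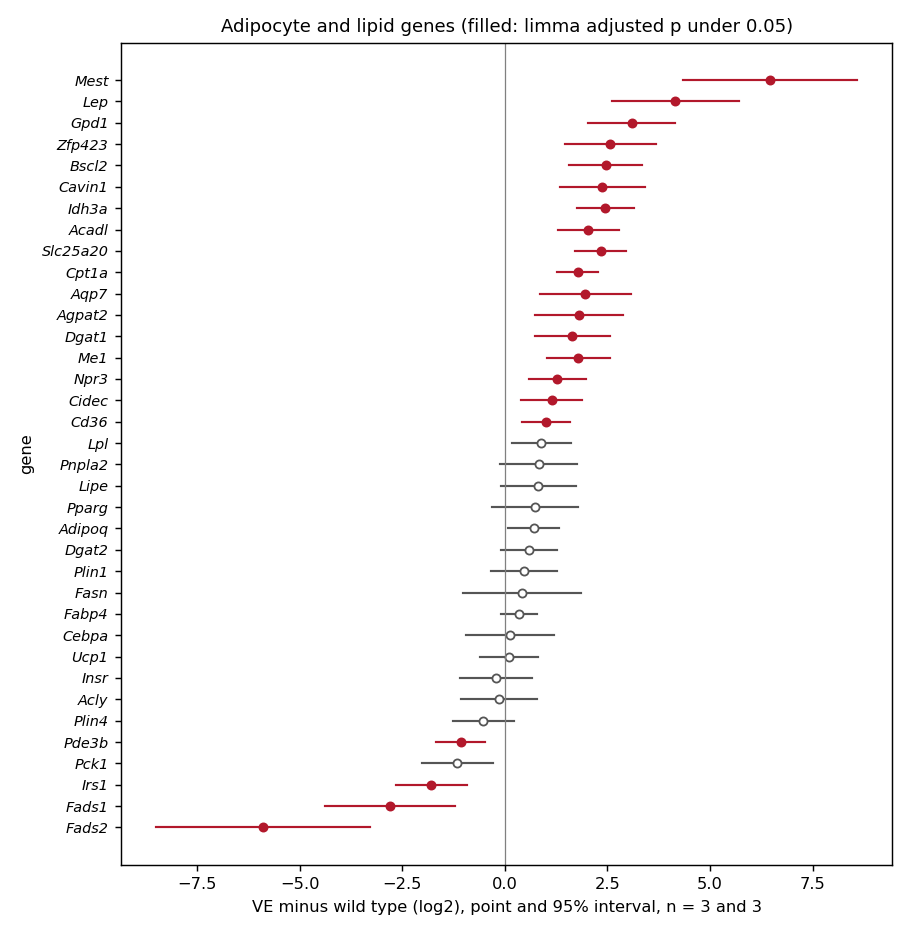
Log2 difference, VE minus wild type, of 36 adipocyte and lipid genes with its 95% interval from the limma fit (n = 3 and 3); filled points passed at an adjusted p under 0.05. Mest, Lep and Gpd1 lie farthest to the right and Fads2 farthest to the left at -5.89, and the intervals of Pparg, Fasn and Ucp1 include 0.

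Fatty acid oxidation genes followed: 12 of 25 genes were higher and 0 lower (median 1.09, and 0.70 against wild type array 3), 11 of them among the 16 mitochondrial genes. Cpt1a, the gatekeeper gene of mitochondrial entry, had signals of 11.71, 11.82 and 11.82 against 9.79, 10.02 and 10.23. Cpt1a differed by 1.77 ± 0.23 (limma adjusted p = 0.000664). The groups were far apart relative to their spread. Slc25a20, the carnitine carrier gene, rose by 2.33 ± 0.28, and the acyl-CoA dehydrogenase genes Acadl by 2.03 ± 0.33, Acads by 2.00 ± 0.28 and Acadm by 1.85 ± 0.30 (limma adjusted p from 0.000396 to 0.00242). Ppargc1a, a coactivator gene of mitochondrial programmes, did not pass, at -2.00 ± 0.76 (limma adjusted p = 0.0933). Of 20 citrate cycle genes 3 were higher and 1 lower, which is 20% called, the same share as over all clusters. Idh3a, an isocitrate dehydrogenase subunit gene, gave 14.37, 14.37 and 14.36 against 11.39, 11.79 and 12.57. Idh3a differed by 2.45 ± 0.32 (limma adjusted p = 0.000659), while Suclg2, of succinyl-CoA ligase, fell by 1.23 ± 0.27 (limma adjusted p = 0.0108). Without wild type array 3 this list gave 5 higher, without VE array 2 or 3 it gave 1, and under quantile normalization it gave 1 higher and 2 lower. Of 13 thermogenic genes 1 passed, Cox8b (1.59 ± 0.35, limma adjusted p = 0.0111), and Ucp1, the uncoupling protein gene, gave 3.96, 4.96 and 3.96 against 4.06, 4.13 and 4.38. Ucp1 differed by 0.10 ± 0.31 (limma adjusted p = 0.849) at the dim end of the array. The thermogenic list had a median of 0.05 and a lowest difference of -5.89. Without overlap, 4 of its genes lay lower in the VE mice and 1 higher. At a limma adjusted p under 0.1 the list gave 1 higher and 4 lower.

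Genes of insulin signalling and glucose use gave 6 higher and 3 lower of 23 (median 0.71). The glycolytic genes Gapdh (2.38 ± 0.25) and Ldha (2.40 ± 0.35) rose (limma adjusted p = 0.00021 and 0.00142), while Ldhb, the other lactate dehydrogenase subunit gene, fell by 2.84 ± 0.30 (limma adjusted p = 0.000225), from 10.53, 10.37 and 9.96 to 7.49, 7.16 and 7.68. Ptpn1, the gene of a phosphatase that opposes the insulin receptor, rose by 1.86 ± 0.39 and Irs1, the receptor substrate gene, fell by 1.79 ± 0.39 (limma adjusted p = 0.00894 and 0.0111). Slc2a4, the insulin-regulated glucose transporter gene, did not pass, at 0.71 ± 0.51 (limma adjusted p = 0.364). The number of higher members was 4 without VE array 1, 4 without VE array 3 and 9 without wild type array 3, and quantile normalization gave 4 higher and 5 lower. Of 20 cholesterol genes 6 were higher and 1 lower (median 0.76). Nceh1, which hydrolyses stored cholesteryl ester, rose by 5.30 ± 0.44 and Abcg1, a cholesterol exporter gene, by 3.79 ± 0.30 (limma adjusted p = 5.33e-05 and 4.35e-05). Of the synthesis genes, Dhcr7 rose by 3.04 ± 0.45 and Fdft1 fell by 1.39 ± 0.31 (limma adjusted p = 0.00146 and 0.012), the latter call being lost without VE array 1 or 2 (-1.67 to -1.19, adjusted p up to 0.0543).

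Some subunit genes of the respiratory chain, the ribosomes and the proteasome were higher in VE than in lean fat, in numbers that depend on the scaling. Of 70 respiratory chain genes 21 were higher and 5 lower in VE than in wild type fat (median 0.43). In vehicle fat 0 were higher and 10 lower than in wild type fat (median -0.24), beside 9.02% higher and 5.05% lower over all clusters. The direct test between VE and vehicle called 0 of the 70, so that a difference between the treatments is not shown for any of them. VE lay above vehicle in 64 of the 70, with a median of 0.75. Over all clusters VE lay above vehicle in 9137 of 19572, with a median of -0.02. Under quantile normalization the VE minus wild type list gave 9 higher and 8 lower with a median of 0.00, so the size of the shift depends on the scaling. With 1 array left out, the list gave 11 higher and 3 lower without wild type array 1, 10 and 3 without VE array 1, 13 and 2 without VE array 2, and 11 and 2 without VE array 3.

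Ndufs8, a core subunit gene of complex I, had signals of 11.50, 10.97 and 11.21 on the VE arrays against 8.41, 8.96 and 9.21. Ndufs8 differed by 2.37 ± 0.28 (limma adjusted p = 0.000401), and by 0.38 in vehicle mice (limma adjusted p = 0.43). The groups did not overlap. Atp5d, an ATP synthase gene, gave 13.96, 14.48 and 14.59 against 11.71, 10.91 and 11.32. Atp5d differed by 3.03 ± 0.35 (limma adjusted p = 0.000349), and by 0.56 in vehicle mice (limma adjusted p = 0.345). Ndufs7 rose by 3.14 ± 0.50, Cox6a1 of complex IV by 2.50 ± 0.47, Atp5g1 by 2.47 ± 0.35 and Ndufb9 by 2.25 ± 0.40 (limma adjusted p from 0.00119 to 0.00553). The lower members were all of complex I, and Ndufa5 fell by 1.23 ± 0.22 (limma adjusted p = 0.00398), as it did in vehicle mice, by 1.85 (limma adjusted p = 0.00045).

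Of 54 cytosolic ribosomal protein genes 11 were higher and 0 lower (median 0.51). That is 20.4% called, near the 20% over all clusters. The list gave 5 higher and 3 lower and a median of -0.01 under quantile normalization; 6 were higher without wild type array 1, 6 without VE array 1 and 7 without VE array 3. Rpl38 rose by 2.69 ± 0.54 and Rpl28 by 2.07 ± 0.35 (limma adjusted p = 0.00752 and 0.00322). Near-identical retrogene copies of these genes are common in the mouse genome, so a probe set may read more than 1 copy. Of 54 mitochondrial ribosomal protein genes 12 were higher and 1 lower (median 0.62, and 0.36 with 11 higher under quantile normalization). Here 24.1% were called, also near the 20% over all clusters. Mrpl33 had signals of 12.87, 12.74 and 12.56 against 9.68, 10.28 and 9.30. Mrpl33 differed by 2.97 ± 0.32 (limma adjusted p = 0.00023), and Mrps10 rose by 1.91 ± 0.28 (limma adjusted p = 0.00147). Of 35 proteasome genes 15 were higher and 0 lower (median 0.85), 7 to 8 when any VE array was left out, 10 without wild type array 1 or 2, and 4 with a median of 0.47 under quantile normalization. Psmc4, an ATPase subunit gene, rose by 1.90 ± 0.24 and Psmd14, a deubiquitinase subunit gene, by 1.85 ± 0.30 (limma adjusted p = 0.000537 and 0.00233).

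The word GCGCATGCG is known to be bound by NRF1, a regulator of nuclear genes for mitochondrial proteins. On either strand it was in 2.71% of all promoter windows, in 8 of 60 windows of the respiratory chain list (13.3%) and in 5 of 47 of the mitochondrial ribosome list (10.6%). Of the 8 respiratory genes 4 were called higher, against 15 of 52 without the word. Of the 5 mitochondrial ribosome genes 2 were called higher and 1 lower, and over all genes 81 of the 426 with the word were called higher, against 1879 of 15265 without it. Mrpl32, which rose by 1.42 ± 0.29 (limma adjusted p = 0.00745), is shown because its window holds the word at separate places before the start, marked in capitals; at the first of these both strands match and overlap.
Mrpl32, chr13:14613038-14613187 (-): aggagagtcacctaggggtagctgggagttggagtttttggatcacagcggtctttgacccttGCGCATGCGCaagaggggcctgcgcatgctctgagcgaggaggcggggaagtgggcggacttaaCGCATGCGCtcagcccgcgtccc

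**Figure D4:**
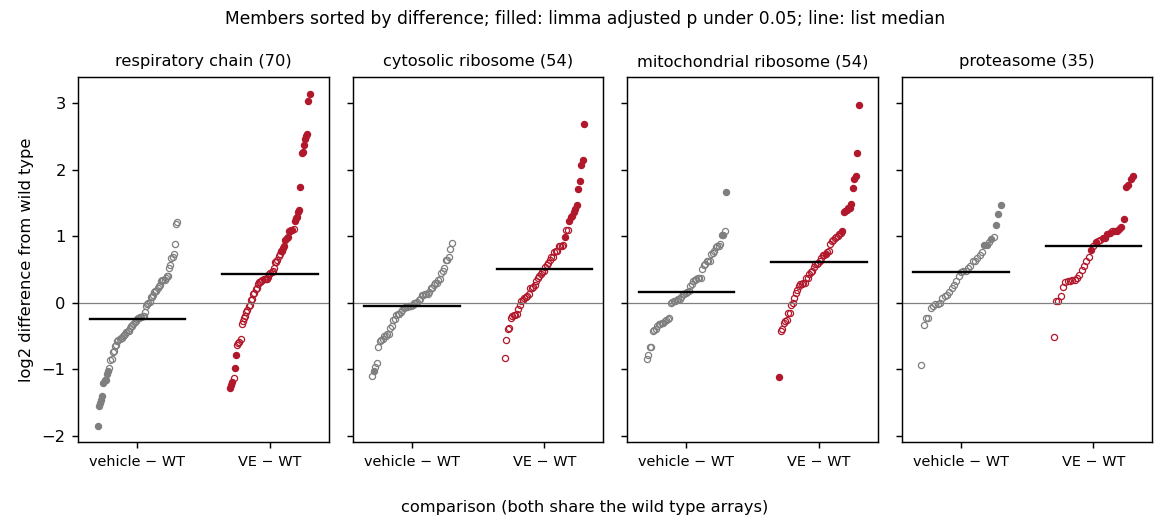
Log2 difference from wild type of each member of 4 lists, sorted, for the ob/ob vehicle mice (grey) and the VE mice (red), which share the same 3 wild type arrays; filled points passed at a limma adjusted p under 0.05 and bars mark list medians. The bars lie at -0.24 and 0.43 for the respiratory chain; under quantile normalization the VE bars of the respiratory chain and the cytosolic ribosome fall to 0.00 and -0.01.

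Between VE and vehicle ob/ob mice 5 of 19572 clusters (0.0255%) were called, all higher in VE, and each was also higher than in wild type mice. Cops9, a subunit gene of the COP9 signalosome, had signals of 14.28, 14.23 and 14.15 in VE mice against 9.46, 9.82 and 10.24 in vehicle mice, with 10.55, 10.91 and 9.38 in lean mice. VE exceeded vehicle by 4.38 (limma adjusted p = 0.0074) and wild type by 3.94 ± 0.38 (limma adjusted p = 0.000126). Vehicle and wild type arrays overlapped. Dad1, a subunit gene of the oligosaccharyltransferase, gave 17.35, 17.54 and 17.33 in VE, 15.27, 14.88 and 14.51 in vehicle and 13.68, 13.37 and 13.25 in wild type mice, so vehicle lay between the other groups. Ppdpf (3.49 ± 0.33), Micos10 (3.10 ± 0.26), a gene of the mitochondrial cristae complex, and Naa38 (2.50 ± 0.28) also exceeded wild type (limma adjusted p from 5.84e-05 to 0.000288). The count of 5 was 0 without any 1 of the VE arrays or ob/ob vehicle array 2, 1 without vehicle array 3, 21 without vehicle array 1 and 9 without wild type array 3, and 893 clusters passed at the submitters' unadjusted threshold.

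Genes of epithelium gave the most decreases of any list: 15 of 21 measured were lower and 0 higher, with a median of -3.60 (-4.09, -4.38 and -1.57 against wild type arrays 1, 2 and 3). All 7 adhesion genes, 5 of 7 regulators and 3 of 7 keratins passed. Cdh1, the E-cadherin gene, had signals of 5.57, 4.76 and 5.62 on the VE arrays against 13.32, 14.09 and 9.90. Cdh1 differed by -7.12 ± 0.85 (limma adjusted p = 0.00043). Epcam, an epithelial adhesion gene, gave 3.87, 3.77 and 4.46 against 10.86, 11.15 and 9.91. Epcam differed by -6.61 ± 0.40 (limma adjusted p = 1.66e-05). Krt8 and Krt18, the keratin pair of simple epithelia, fell by 4.52 ± 0.48 and 4.22 ± 0.46, Pax8, a factor gene of kidney and genital tract epithelium, by 7.35 ± 0.74 and Prom1 by 7.66 ± 0.64 (limma adjusted p from 5.58e-05 to 0.000246). Wild type array 3 was the lowest lean array for Cdh1, Epcam, Krt18, Pax8 and Prom1 but not for Krt8. No VE array overlapped a lean array in any of the 6. Over all clusters, 17.7% lay lower in the VE mice without overlap. The ob/ob vehicle mice gave 15 lower of the same 21 with a median of -3.50.

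Pdzk1ip1, a membrane protein gene of kidney and other epithelia, had the smallest p-value among the decreases, with 3.23, 3.00 and 2.99 on the VE arrays against 11.11, 11.73 and 12.43. Pdzk1ip1 differed by -8.68 ± 0.36 (limma adjusted p = 2.94e-06). Here wild type array 3 was the highest, and the VE signals lay near the dim end of the array. Ano1, a chloride channel gene of epithelia and interstitial cells, gave 7.66, 8.21 and 8.52 against 13.49, 13.50 and 12.18. Ano1 differed by -4.93 ± 0.39 (limma adjusted p = 4.35e-05). Among decreases in which the lean arrays agreed within 1 log2 unit, Ezr, the gene of the membrane linker ezrin, fell by 4.27 ± 0.36, Rnf32 by 3.44 ± 0.27 and Igsf5, a junction protein gene, by 3.17 ± 0.24 (limma adjusted p from 3.52e-05 to 5.74e-05). For these genes the lean arrays were alike: the signals of Ezr were 13.34, 13.37 and 12.52 and those of Igsf5 were 9.33, 9.0 and 8.74. In the same class St6galnac2, a sialyltransferase gene, fell by 3.50 ± 0.38, Ldhd, a D-lactate dehydrogenase gene, by 3.37 ± 0.31, Cabcoco1 by 3.25 ± 0.32, Ttc39a by 3.22 ± 0.35 and Rsph9, a radial spoke gene of motile cilia, by 2.55 ± 0.23 (limma adjusted p from 8.32e-05 to 0.000253).

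Smooth muscle genes gave 6 lower and 0 higher of 12, with a median that ran from -2.57 and -6.50 against wild type arrays 1 and 2 to -0.90 against array 3. Cnn1, the calponin gene of contractile cells, had signals of 4.84, 4.33 and 5.70 against 13.35, 16.99 and 8.06. Cnn1 differed by -7.84 ± 1.70 (limma adjusted p = 0.0105). Myh11, the smooth muscle myosin gene, gave 7.93, 8.09 and 7.93 against 12.74, 18.13 and 9.79. Myh11 differed by -5.57 ± 1.56 (limma adjusted p = 0.0316), which was lost without wild type array 1, any VE array or ob/ob vehicle array 2 (difference -7.45 to -3.28 over the arrays left out, adjusted p up to 0.0881). Wild type array 2 was by far the highest in both. The list gave 2 lower without wild type array 1, 5 without array 2, 10 without array 3, and 1 to 2 without any VE array. It gave 2 lower in a fit of the 2 groups alone and 2 with a robust prior, and against wild type array 3 alone 1 higher and 3 lower.

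Some transcripts of the male genital tract were also brightest on wild type arrays 1 and 2, but not all. The median signal of 11 epididymis genes was 5.38, 8.37 and 4.71 on wild type arrays 1, 2 and 3. For 9 sperm or testis genes it was 6.25, 5.06 and 5.26, with array 2 below array 3. Serpina1f, an epididymal serpin gene, had signals of 4.14, 3.35 and 4.84 on the VE arrays against 18.81, 17.98 and 6.34 on the wild type arrays. Serpina1f differed by -10.27 ± 2.66 (limma adjusted p = 0.0228). Arrays 1 and 2 carried it at bright signals, array 3 lay near the VE arrays, and the call was lost without wild type array 1 or 2 or any VE array (difference -14.29 to -8.05 over the arrays left out, adjusted p up to 0.0761). Ptgs2, the inducible cyclooxygenase gene, had the same pattern, with 4.57, 3.68 and 5.18 against 18.51, 18.67 and 6.35. Ptgs2 differed by -10.03 ± 2.73 (limma adjusted p = 0.028), lost without the same arrays (-14.11 to -7.95, adjusted p up to 0.0927). Large decreases of genes on none of the lists split the lean arrays as well. Cuzd1 gave 4.12, 4.79 and 4.52 against 10.30, 18.19 and 12.52. Cuzd1 differed by -9.19 ± 1.5 (limma adjusted p = 0.00249), here with array 2 highest. Plac8 and Anxa13 fell by 7.55 ± 1.73 and 7.82 ± 1.94 (limma adjusted p = 0.0135 and 0.0192), each with arrays 1 and 2 far above array 3, and the call of Anxa13 was lost without wild type array 1 or 2 or any VE array (-10.86 to -6.09, adjusted p up to 0.0627). Of 20 epididymis and testis genes 7 were lower and 1 higher; 1 was lower without wild type array 1, 4 without array 2, 11 without array 3, and 0, 2 and 1 without VE arrays 1, 2 and 3. The lower count was 1 in a fit of the 2 groups alone, 3 with a robust prior, 4 under quantile normalization and 1 against wild type array 3 alone. The higher member was Sycp3, a meiotic chromosome axis gene, with 13.68, 13.24 and 12.52 against 8.98, 8.47 and 9.45. Sycp3 differed by 4.18 ± 0.36 (limma adjusted p = 5.84e-05). Of the 20 genes 17 had a difference below 0 and 3, Sycp3 among them, above it. How far genital tract, epithelial or muscle tissue in the lean samples bears on other differences was not tested.

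**Figure D5:**
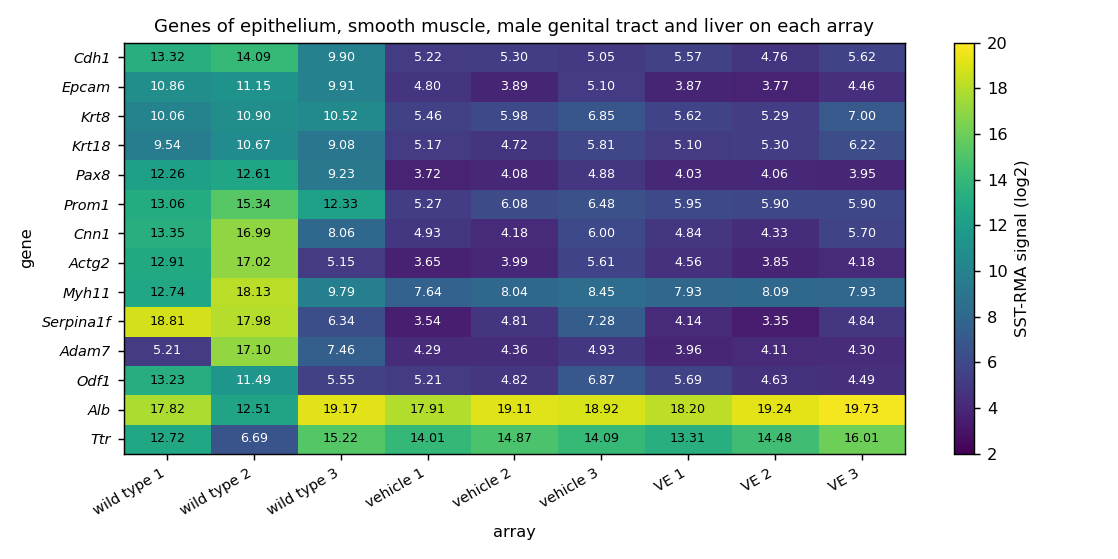
SST-RMA log2 signal of 14 genes of epithelium, smooth muscle, the male genital tract and liver on the 9 arrays, colour and number giving the signal. Apart from Krt8, the epithelial and contractile genes are brighter on wild type arrays 1 and 2 than on wild type array 3. Alb and Ttr are dimmest on wild type array 2, at 12.51 and 6.69.

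Hepatic secretory genes differed between lean arrays in another way. Alb, the albumin gene, had signals of 18.20, 19.24 and 19.73 on the VE arrays against 17.82, 12.51 and 19.17 on the wild type arrays, and Ttr, the transthyretin gene, 13.31, 14.48 and 16.01 against 12.72, 6.69 and 15.22. Neither passed, at 2.56 ± 1.35 and 3.06 ± 1.69 (limma adjusted p = 0.213 and 0.234), and wild type array 2 alone was low. Of the 12 genes 1 was lower, with a median of 1.42 that was -1.38 against wild type array 3 and -0.05 without wild type array 2, and 6 were higher without array 3, Alb (3.89) and Ttr (4.89) among them. Cyp2e1, a cytochrome gene that adipocytes express too, was the lower member, with 12.89, 14.37 and 15.70 against 16.45, 16.87 and 17.89. Cyp2e1 differed by -2.75 ± 0.67 (limma adjusted p = 0.0172), lost without VE array 1 or 2 (-3.44 to -2.04 over the arrays left out, adjusted p up to 0.0546).

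The counts for other cell types and pathways are to be read against the 20% called over all clusters. The shares called of Schwann cell genes (42.9%), prostaglandin and leukotriene genes (52.9%), immediate early genes (28.6%), and mesothelial and glucocorticoid genes (25% each) lay above it, and on such short lists they rest on 2 to 9 genes. Skeletal muscle genes gave 0 calls of 15, B cell genes 0 of 9, endothelial genes 1 higher of 12 and stromal progenitor genes 1 higher of 10. The list of neutrophil genes gave 1 lower of 11, mast cell genes 1 higher and 1 lower of 10, mesothelial genes 1 and 1 of 8, Schwann cell genes 1 higher and 2 lower of 7, lymphatic genes 1 lower of 5, pancreas acinar genes 1 higher of 11 and erythroid genes 0 of 4. Of 13 T and NK cell genes 2 were higher, and the larger was Il7r, the interleukin 7 receptor gene, with 12.19, 12.27 and 11.83 against 6.33, 4.62 and 5.57. Il7r differed by 6.59 ± 0.44 (limma adjusted p = 2.06e-05), while the T cell receptor chain gene Cd3e gave 0.26 ± 0.52 (limma adjusted p = 0.764) at signals between 4.58 and 5.79. Interferon response genes gave 1 higher of 19 and unfolded protein response genes 4 higher of 20, of which Atf3, a stress factor gene, had the largest difference, 3.41 ± 0.33 (limma adjusted p = 0.000147). The count of unfolded protein response genes fell to 2 without any 1 of the VE arrays. MHC class II genes gave 2 higher of 9 (22.2%), but 0 without wild type array 1 or VE array 1, 1 without wild type array 2 or VE array 2, and 4 without wild type array 3. Hypoxia genes gave 1 higher and 1 lower of 12, glucocorticoid genes 1 and 1 of 8, circadian clock genes 1 and 1 of 17, immediate early genes 2 and 2 of 14, and genes of branched-chain amino acid breakdown 1 and 1 of 18. Of 17 prostaglandin and leukotriene genes 6 were higher, with Hpgds, of prostaglandin D synthesis in blood-derived cells, at 5.27 ± 0.39 and Alox5ap, of leukotriene synthesis, at 2.91 ± 0.30 (limma adjusted p = 3.08e-05 and 0.000204), and 3 were lower, among them Ptgs2; the lower count was 1 without VE array 1, 0 without VE array 2 and 5 without wild type array 3.

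Some of the largest increases were of genes on none of the lists. Slc5a7, the choline transporter gene of cholinergic neurons, had signals of 14.74, 14.43 and 11.96 on the VE arrays against 4.26, 3.22 and 3.69. Slc5a7 differed by 9.99 ± 0.67 (limma adjusted p = 2.06e-05). Its wild type signals, like those of Tm4sf19 and Gpr50, lay near the dim end of the array and were not set against detection calls, so the size of these differences is uncertain. VE array 3 was the lowest of its group and still far above every lean array, and the vehicle mice stood 10.03 above wild type. Tm4sf19, a tetraspan membrane protein gene, gave 12.80, 13.37 and 12.88 against 4.59, 3.79 and 4.10. Tm4sf19 differed by 8.86 ± 0.46 (limma adjusted p = 5.75e-06). Lilr4b, an inhibitory receptor gene of myeloid cells, rose by 7.10 ± 0.35, Slc37a2, a sugar phosphate exchanger gene of macrophages, by 6.66 ± 0.37, Mrc2, an endocytic collagen receptor gene, by 5.97 ± 0.30, Slc11a1, a metal transporter gene of phagosomes, by 5.89 ± 0.29 and Akr1b8, an aldose reductase family gene, by 5.74 ± 0.44 (limma adjusted p from 4.93e-06 to 3.64e-05). Clec12a, an inhibitory lectin receptor gene of myeloid cells, rose by 5.74 ± 0.47 and Tnfaip2 by 4.99 ± 0.25 (limma adjusted p = 4.78e-05 and 4.93e-06). Gpr50, an orphan relative of the melatonin receptors, gave 14.37, 13.89 and 8.54 against 4.93, 5.06 and 4.01. Gpr50 differed by 7.60 ± 1.32 (limma adjusted p = 0.0035), with VE array 3 well below the other VE arrays. In Slc37a2, Mrc2 and Akr1b8 the wild type signals ran from 4.61 to 4.71, from 7.0 to 7.53 and from 7.24 to 7.79.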

How the data were processed

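White adipose tissue RNA of male mice was measured on 9 Clariom S mouse arrays, 3 per group, from 100 ng of RNA per sample, per the series' design text. The deposited values are log2 signals that the authors summarised with SST-RMA in the Transcriptome Analysis Console (version 4.0.2 in the design text); the genome build is not given in the sources used here, and detection calls were not used. Of 22206 transcript clusters, the 19572 with 1 gene symbol in the platform annotation were analysed. limma 3.58.1 in R 4.3.3 fitted the 3 group means over all 9 arrays with moderated, two-sided tests and Benjamini-Hochberg adjustment over 19572 clusters; a call is an adjusted p under 0.05. An exact permutation test of 3 against 3 arrays cannot go below 0.1 and was not used. Differences are log2 values ± SE, VE minus wild type, with n = 3 and 3. The lists are described by counts and medians, with no set test.

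The members, the gene lists and the rules were chosen with earlier results of these data known. The genes named are the largest changes by difference and by p-value, those whose wild type arrays lay within 1 log2 unit, list members with the highest or lowest moderated t or called with a difference of 1 or more, the clusters called between VE and vehicle, and a few genes known from the model; other list members that are named were chosen after their values were seen. On simulated data with 50 genes changed per fold, the VE and wild type comparison recovered 0 of 50 genes at 1.5-fold, 6 at 2-fold, 37 at 4-fold and 50 at 16-fold. The simulation changed far fewer genes than were called here and gave the groups the same spread. These rates need not hold for the real arrays. The deviations of samples that share a replicate number did not correlate above 0.1 in every pair, so the numbers were not used as pairs. The number of arrays limits the precision.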

Additional observations from a re-analysis of the deposited data

How the results depend on the processing

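Of the 2436 clusters higher and 1484 lower in VE than in wild type mice, quantile normalization, median centring, the trended and robust priors and array weights moved neither count by over 1.5 times. The clusters called were not all the same. Under quantile normalization 1773 of the 2436 higher and 1082 of the 1484 lower clusters were called again. The higher count was 1492 without wild type arrays 1 and 2 and 1595 to 2783 with 1 array left out. The lower count was 926 in a fit of the 2 groups alone, 2385 at an adjusted p under 0.1, 3044 at the submitters' threshold (unadjusted p under 0.05 and over 1.1-fold), and 714 to 1923 with 1 array left out. Vehicle against wild type gave 1766 higher clusters, 3067 at the submitters' threshold, 1162 without wild type arrays 1 and 2 and 1169 to 2110 with 1 array left out; its 988 lower clusters became 532 in the 2-group fit, 1601 at an adjusted p under 0.1, 2488 at the submitters' threshold and 472 to 1435 with 1 array left out. The 5 clusters called between VE and vehicle became 19 in the 2-group fit, 12 with the robust prior, 41 with array weights, 17 at an adjusted p under 0.1, 893 at the submitters' threshold, 19 without wild type arrays 1 and 2, and 0 to 21 with 1 array left out. With the replicate number as a block, 2359 clusters were higher and 1372 lower than in wild type mice and 0 were called between VE and vehicle; the deviations of arrays that share a number correlated at -0.064, -0.028 and 0.096 between wild type and VE and at 0.099, 0.181 and 0.029 between vehicle and VE, so not every pair was over 0.1. The causes of these shifts were not tested.

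No gene called in VE against wild type and named in the text changed sign in any setting, but calls were lost: of 166 such genes, 18 without wild type arrays 1 and 2, 5 in the 2-group fit, 4 with the robust prior, 2 under quantile normalization and up to 13 with 1 array left out. Of genes that did not pass, Fasn and Plin1 changed sign under quantile normalization, to -0.078 and -0.087. Without wild type arrays 1 and 2 the sign changed for Fasn (-1.07), Plin1 (-0.47), Pparg (-0.37), Lipe (-0.19), Pnpla2 (-0.0067), Alb (-0.11), Ttr (-0.62), Ucp1 (-0.087) and Retn (-0.043). With 1 array left out, Cd3e ran from -0.10 to 0.46, Il6 from -0.65 to 0.14 and Ucp1 from -0.23 to 0.27. The lone wild type array of that setting is assumed to vary like the other groups. Signals near the dim end of the array, as of Tnf, Ucp1 and Cd3e, were not set against detection calls. The same holds for Trem2, Slc5a7, Tm4sf19 and Gpr50 on the wild type arrays. It also holds for Pdzk1ip1, Epcam and Serpina1f on the VE arrays, so the sizes of these differences are uncertain.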
